A study of Mus musculus with 9 samples.

Results

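Star-strand miRNAs are the arms of miRNA hairpins whose array names end in an asterisk. The mouse star names on the array numbered 115, and 108 of them were followed here, out of 650 miRNAs in all. The rule that picks them reads names and no levels, and 7 star names from the miR-9, miR-34, miR-124, miR-297, miR-466, miR-467 and miR-669 families were left out. Each member was set beside its main strand, the arm of the same hairpin that carries the plain name, which gave 104 different main strands because some names, such as miR-218 and miR-24, have star strands from several loci. Exceptions were miR-125b*, set beside miR-125b-5p, and miR-199b*, set beside miR-199a-3p, which has the same sequence as its own main strand.

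A miRNA gene is transcribed as a hairpin, and Dicer cuts from it a duplex of paired arms. Usually 1 arm is loaded into an Argonaute protein and guides it to target mRNAs, while the other, the passenger or star strand, is released and degraded. Some hairpins keep both arms, and the star strand then has a seed of its own and can bind other targets.

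The small RNA came from hippocampal neurons of C57BL/6 mice at postnatal day 1, kept in culture for 10 days, on 9 one-colour Agilent arrays with 3 arrays a group. Control neurons were untreated. NMDA neurons received NMDA, which activates synaptic and extrasynaptic NMDA receptors, at 20 µM for 4 h according to the labels. The study's methods give a range of concentrations that includes it, and a short exposure followed by washing. Bicuculline neurons received 50 µM bicuculline, which blocks GABA-A receptors and so drives synaptic activity, for 4 h. No gene was altered in any group, and the study describes its experiments as independent. The p-values below measure the spread between 3 such preparations, and the small number of arrays limits the precision.

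A level is the signal of a miRNA's brightest probe as a percentage of the array's scale. That scale is the 75th percentile of the signal of 265 probes, those detected on every array. A miRNA counts as detected where at least 50% of that probe's unflagged spots were marked well above background by the scanner software. Levels of different probes are not comparable, so star and main strand are given side by side and only their changes are compared. The 5 neuronal marker miRNAs, among them miR-124 and miR-9, were detected on all 9 arrays and the 6 markers of microglia and blood cells on none. Of 3 muscle markers, miR-1 was detected on all 9 arrays and miR-133a and miR-206 on none. Of 4 glial markers, miR-338-3p and miR-21 were detected on all 9, miR-146a on some and miR-219 on none. The summed glial level was 226 to 282 in control, 231 to 255 in NMDA and 237 to 271 in bicuculline. Most of it was miR-21, at 185 to 232 over the arrays. The summed neuronal level was 3304 to 3375 in control, 3061 to 3329 in NMDA and 3013 to 3302 in bicuculline. The part of either in the results was not tested. In such bulk RNA, fewer cells of a type and less RNA per cell cannot be told apart.

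Most passenger strands were below detection. Of the 108 star strands, 11 were detected on all 9 arrays, 9 on 1 to 8 arrays and 88 on none. Their sequences show what was measured, so those of the 11 detected throughout are printed first, 5′ to 3′, with the seed (bases 2 to 8) in capitals. All are from RefSeq on build GRCm38.p6, matched through the current arm names, and all 20 star strands detected on any array were found there. The first 9 come from the imprinted Dlk1-Dio3 locus, a maternally expressed cluster of miRNA genes that is active in brain.
miR-433* (chr12:109591729-109591750, + strand): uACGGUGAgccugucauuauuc
miR-136* (chr12:109595366-109595387, + strand): aUCAUCGUcucaaaugagucuu
miR-411* (chr12:109710225-109710246, + strand): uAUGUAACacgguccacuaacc
miR-299* (chr12:109710644-109710665, + strand): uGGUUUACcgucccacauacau
miR-376b* (chr12:109723471-109723492, + strand): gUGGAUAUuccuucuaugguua
miR-376a* (chr12:109723786-109723807, + strand): gGUAGAUUcuccuucuaugagu
miR-300* (chr12:109724318-109724339, + strand): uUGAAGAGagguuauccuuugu
miR-382* (chr12:109733819-109733840, + strand): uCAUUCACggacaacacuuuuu
miR-154* (chr12:109738474-109738495, + strand): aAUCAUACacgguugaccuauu
miR-30e* (chr4:120772618-120772639, - strand): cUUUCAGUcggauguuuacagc
miR-140* (chr8:107551288-107551308, + strand): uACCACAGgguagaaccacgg

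The 11 have 11 different seeds. The seed of miR-30e* is shared by miR-30a*, which was detected on 5 arrays and differs from it at 1 of 22 bases, so their probes may read each other's RNA.
miR-30a* (chr1:23272315-23272336, + strand): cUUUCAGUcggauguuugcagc
Likewise miR-299* shares a run of at least 17 bases with miR-299b-5p, and miR-376b* with miR-376c-5p, the arm named miR-376c* on the array, which was detected on no array. The 9 hairpins on chromosome 12 span 147 kb of the + strand (chr12:109591715-109738498). In the RefSeq table those of miR-433* and miR-136* lie within the span of Rtl1, a retrotransposon-derived gene (the former also in that of the long noncoding RNA gene 6430411K18Rik), that of miR-154* lies in the long noncoding RNA gene Mirg, and no other gene's span holds the remaining 6. The hairpin of miR-30e* lies in Nfyc, which encodes a subunit of the transcription factor NF-Y, and that of miR-140* in Wwp2, which encodes a ubiquitin ligase.

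Both arms of a hairpin can be read in the precursors. Those of miR-433*, which was detected with its main strand, miR-299*, which was detected without it, and let-7c-1*, which was not detected beside a main strand that was, are shown with the star strand in capitals.
Mir433 (chr12:109591715-109591838, + strand): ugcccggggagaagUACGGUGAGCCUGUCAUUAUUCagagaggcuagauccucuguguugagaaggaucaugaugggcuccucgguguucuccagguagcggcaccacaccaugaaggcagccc
Mir299a (chr12:109710638-109710700, + strand): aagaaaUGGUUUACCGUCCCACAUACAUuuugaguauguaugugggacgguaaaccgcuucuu
Mirlet7c-1 (chr16:77599657-77599750, + strand): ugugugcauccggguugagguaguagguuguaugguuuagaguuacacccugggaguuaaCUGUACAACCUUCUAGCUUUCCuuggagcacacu
Of the 20 star strands detected on any array, 7 are the 5p arm, as in Mir433 and Mir299a, and 13 are the 3p arm. Their first base was U in 8, C in 5, A in 4 and G in 3. Among the 19 main strands found in the table the first base was U in 11, A in 6, G in 2 and C in 0.

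Main strands were detected far more often. Of the 108 pairs, 57 had the main strand on all 9 arrays, and in 40 of these the star strand was on none. Both strands were detected on at least 1 array in 17 pairs, the main strand alone in 49, neither in 39, and the star strand alone in 3, which were miR-299*, miR-330* and miR-674*. The 10 pairs with both strands on all 9 arrays were those of miR-136, miR-140, miR-154, miR-300, miR-30e, miR-376a, miR-376b, miR-382, miR-411 and miR-433.

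**Figure D1:**
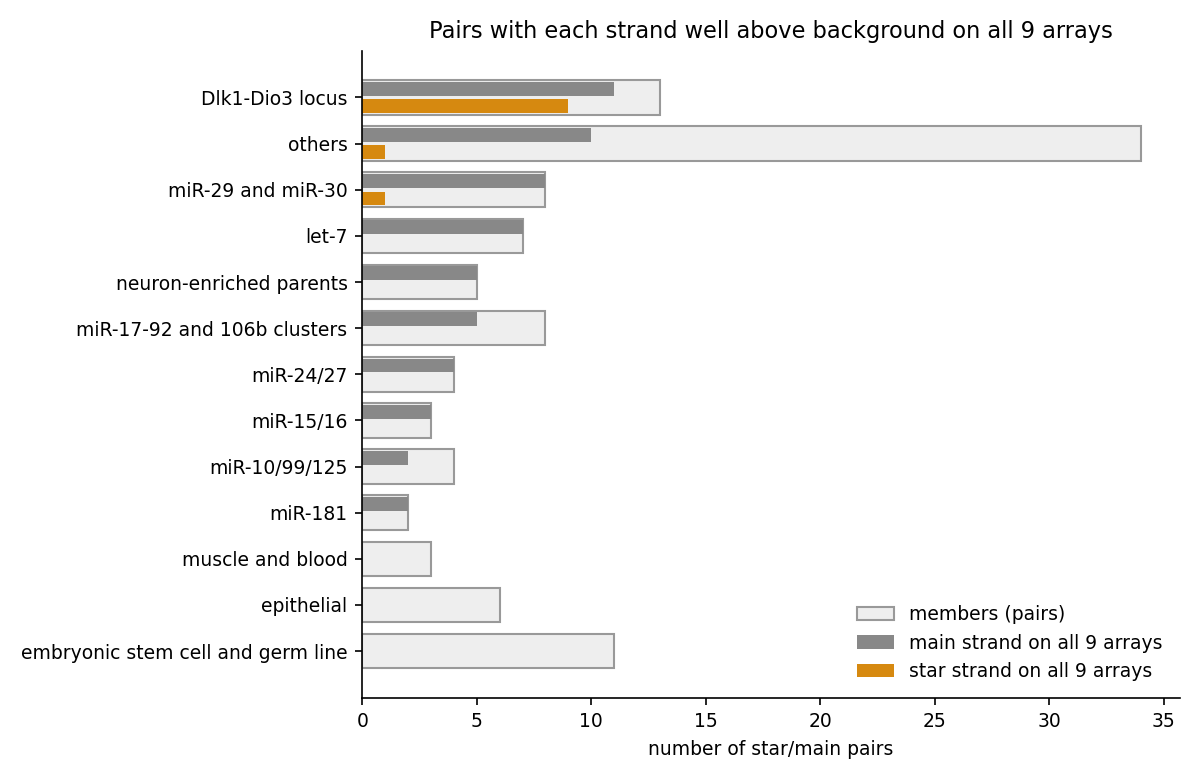
Number of star and main strand pairs in each group of members (wide pale bars), with the number whose main strand (grey) or star strand (orange) was well above background on all 9 arrays. The Dlk1-Dio3 locus holds 9 of the 11 star strands detected throughout, and the 7 let-7 pairs have 7 main strands and 0 star strands.

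Most of the star strands detected throughout came from the Dlk1-Dio3 locus. The grouping was made with detection known, so its counts are a description without a test. Of its 13 members 9 (69.2%) were detected on all 9 arrays, against 2 of the 95 other star strands (2.11%). Main strands were detected on all 9 arrays in 11 of its 13 pairs and in 46 of the other 95. The 4 members of the locus without a star signal were miR-127*, miR-376c*, miR-431* and miR-485*, whose main strands were detected on 9, 9, 9 and 8 arrays. The level of miR-127* lay between -1.20% and 0.397% of the scale over the 9 arrays, where that of miR-127 lay between 251% and 306%.

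In other families main strands were detected throughout without their passengers. All 7 let-7 main strands, miRNAs known for promoting differentiation, were detected on all 9 arrays and 0 of the 7 let-7 star strands on any. The median level of let-7c was 2226% of the scale, and its star strand let-7c-1* had a median of 1.46%. let-7d* reached 8.68% on 1 array, the highest value among the 88 undetected star strands, and was still not marked there. For miR-125b, known from neural development, the median was 3375% beside -0.206% for miR-125b*. The same held for miR-218, a miRNA enriched in motor neurons, at a median of 272% with miR-218-1* at 0.0503% and miR-218-2* at -1.32%, and for miR-21, known from glia and injury, at 213% with miR-21* at -0.858%.

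Counted by family, 0 of 4 star strands were detected on any array for miR-24 and miR-27, 0 of 3 for miR-15 and miR-16, and 0 of 8 for the miR-17-92 and miR-106b clusters, known from proliferating cells, where 4, 3 and 5 of the main strands were detected on all 9. The 8 pairs of miR-29 and miR-30 had 8 main strands on all 9 arrays and 4 star strands on at least 1, and in 1 of these, miR-30e*, on all 9. Among 5 pairs with neuron-enriched main strands, miR-7a* was the star strand detected. Neither strand of the 11 embryonic stem cell and germ line pairs, the 6 epithelial pairs or the 3 muscle and blood pairs was detected on any array.

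The brightest probe carried these calls. Every star strand has 2 to 4 probes, and miR-154*, miR-300*, miR-411* and miR-433* were the 4 of the 11 with at least 2 probes well above background on all 9 arrays. For the other 7, 1 probe was so on all 9.

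The number detected on an array moved with that array's limit of detection, taken as the lowest signal marked as above background. Both come from the same marks, so they are linked by construction, and the part of the limit was not tested. On NMDA 3 the limit, 5.14%, was the level of miR-135a*, which is itself counted. The same holds on control 1, where the limit, 8.37%, was the level of miR-181a-1*. Control arrays had 13, 13 and 18 star strands above background, NMDA arrays 13, 17 and 20, and bicuculline arrays 13, 18 and 14. All 3 groups overlapped. NMDA exceeded control by 2 star strands a mean array (two-sided exact permutation test over 3 arrays against 3, p = 0.7), bicuculline exceeded control by 0.333 (exact p = 1) and NMDA exceeded bicuculline by 1.67 (exact p = 0.7), in a design whose smallest p is 0.1. The lowest signal marked as above background ranged from 4.39% to 8.40% of the scale, and the 5 arrays with 13 or 14 star strands had it at 7.94% or more.

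**Figure D2:**
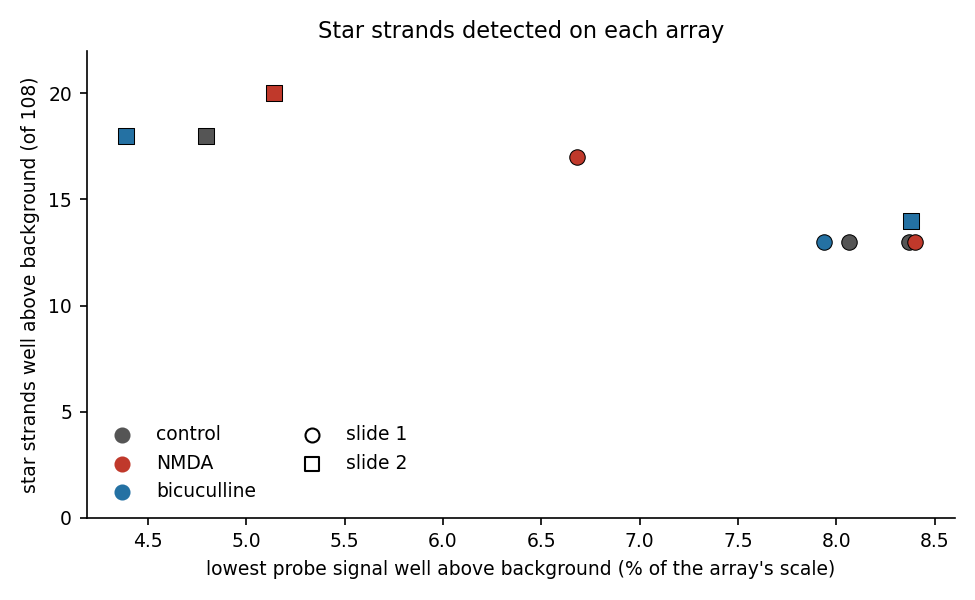
Number of the 108 star strands well above background on each array, against the lowest probe signal marked so on that array, as a percentage of the array's scale. Both axes come from the same marks of the scanner software and are not independent. Colours give the group and marker shapes the slide. The 4 arrays with 17 to 20 star strands have the lowest limits, 4.39% to 6.68%, and belong to all 3 groups.

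There were 2 slides, each read with its own software version, and no group lay on a single slide. Slide 1 held controls 1 and 2, NMDA 1 and 2 and bicuculline 1, with 13 to 17 star strands an array, and slide 2 held the other 4 arrays with 14 to 20. Detected on all 3 arrays of a group were 12 star strands in control, 13 in NMDA and 12 in bicuculline, which is 11.1%, 12.04% and 11.1% of the members, against 24.5%, 27.5% and 24.6% of all 650 miRNAs and 51.9%, 51.0% and 51.9% of the main strands. Beside the 11 detected throughout, miR-674* passed in control and bicuculline, and miR-29c* and miR-181a-1* in NMDA. Their sequences, with the seed in capitals, follow.
miR-674* (chr2:117185186-117185207, + strand): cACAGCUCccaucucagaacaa
miR-29c* (chr1:195037562-195037583, + strand): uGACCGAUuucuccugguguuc
miR-181a-1* (chr1:137966508-137966529, + strand): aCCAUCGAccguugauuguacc

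These 14 star strands could be compared between groups, and in none of the 3 comparisons did any change pass the test. For each comparison limma was fitted to the miRNAs detected on every array of one or the other group, with Benjamini-Hochberg adjustment over all of them and a threshold of 0.05. For NMDA against control 0 of 14 star strands were called, where 15 of all miRNAs tested (8.29%) were, all of them higher. For bicuculline against control 0 of 12 were called, where 1 of 161 miRNAs (0.621%) was. For NMDA against bicuculline 0 of 14 were called, where 16 of all tested (8.84%) were. No star strand had an unadjusted p under 0.05 in any comparison at these settings. With normexp background correction and quantile normalization 10 of 14 did for NMDA against control and 9 of 14 for NMDA against bicuculline, with 0 called (smallest limma adjusted p = 0.068 and 0.072). At that setting the median log2 fold change over star strands was -0.14 and -0.13, beside -0.10 and -0.09 over all miRNAs tested. The share of all miRNAs with such an unadjusted p is not given, so these counts are not read as particular to star strands. The first and second comparisons share the 3 control arrays.

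**Figure D3:**
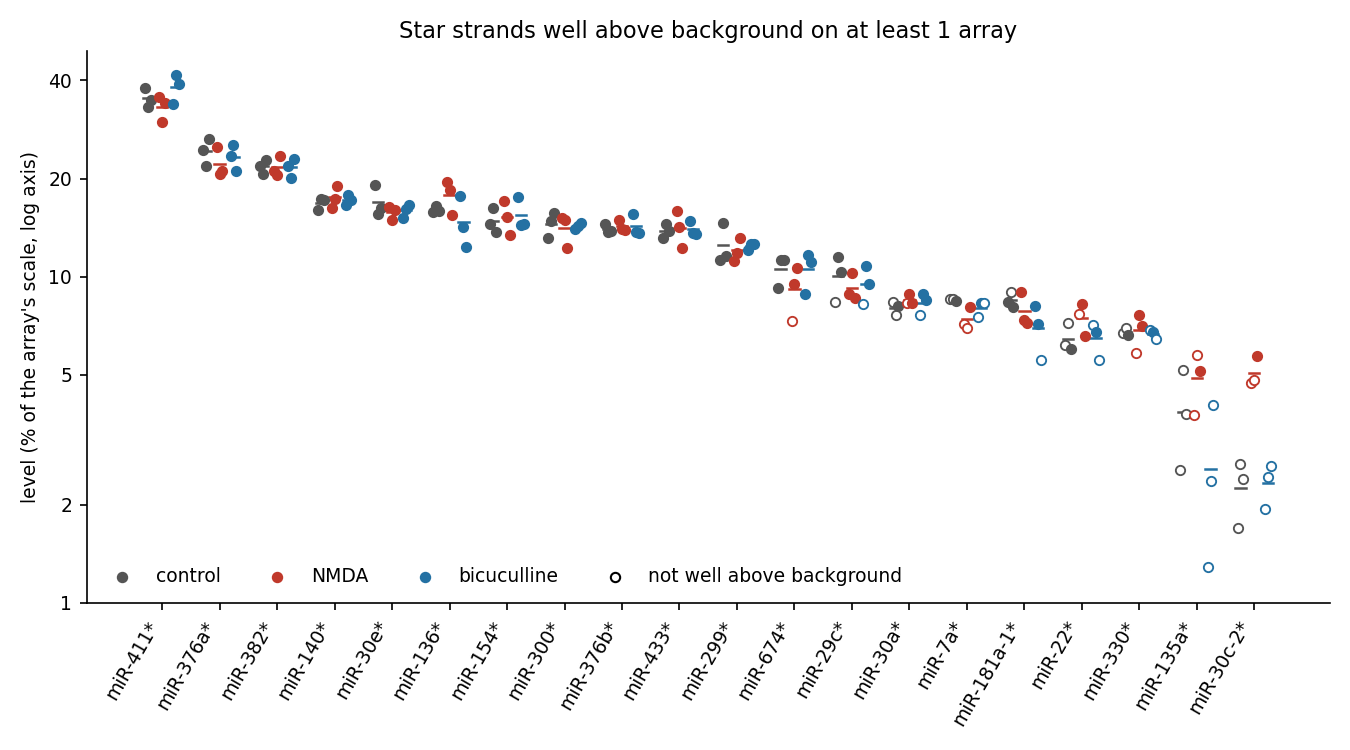
Level of the 20 star strands detected on at least 1 array, as a percentage of the array's scale on a log axis, for each of the 3 control, NMDA and bicuculline arrays. Filled points were well above background, open points were not, and short lines are group means. Within each of the 11 star strands detected on every array the 3 groups overlap. Levels of different probes are not comparable.

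miR-411* had levels of 38.0%, 33.1% and 34.8% of the scale in control, 35.6%, 29.8% and 34.1% in NMDA and 33.8%, 41.4% and 39.0% in bicuculline. The groups overlapped, with the lowest array in NMDA and the highest in bicuculline. Its log2 fold change was -0.09 ± 0.10 (SE) for NMDA and 0.11 ± 0.11 for bicuculline, both against control, and -0.20 ± 0.11 for NMDA against bicuculline (limma adjusted p = 0.991, 0.999 and 0.720). Its main strand miR-411 lay between 21.2% and 25.7% over the 9 arrays.

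miR-136* showed the widest spread of the 11, with a coefficient of variation of 13.4% over the 9 arrays. It stood at 15.8%, 16.5% and 15.9% of the scale in control, 19.5%, 18.4% and 15.5% in NMDA and 17.6%, 14.2% and 12.4% in bicuculline. Both NMDA arrays of slide 1 lay above all controls and the NMDA array of slide 2 below them. The log2 fold change was 0.14 ± 0.10 (SE) for NMDA against control, the highest of the 14, -0.14 ± 0.13 for bicuculline against control, the lowest of 12, and 0.28 ± 0.15 for NMDA against bicuculline (limma adjusted p = 0.991, 0.999 and 0.709). Within slide 1 NMDA minus control was 0.23 on the log2 scale and within slide 2, with a single array of each group, it was -0.04. The main strand miR-136 lay between 56.3% and 93.8%.

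For miR-376a*, the levels were 24.5%, 21.9% and 26.4% in control, 25.0%, 20.7% and 21.1% in NMDA and 23.5%, 25.3% and 21.1% in bicuculline, and its neighbour miR-376b* had 14.5%, 13.8% and 13.8%, then 14.96%, 14.0% and 13.9%, then 15.5%, 13.7% and 13.6% in the same order. The groups overlapped for both, and miR-376b* had the smallest coefficient of variation of the 11, 4.70%. Against control, log2 fold changes were -0.13 with NMDA and -0.06 with bicuculline for miR-376a*, and 0.02 and 0.02 for miR-376b*. Beside them miR-376a lay between 91.1% and 169% and miR-376b between 36.1% and 46.5%.

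Among the remaining star strands of the locus, miR-382* had 21.9%, 20.7% and 22.8% in control, 21.0%, 20.5% and 23.5% in NMDA and 21.9%, 20.0% and 23.0% in bicuculline. The levels of miR-154* were 14.5%, 16.3% and 13.7%, then 17.1%, 15.2% and 13.4%, then 17.5%, 14.4% and 14.6%. Those of miR-300* were 13.2%, 14.8% and 15.6%, then 15.2%, 14.9% and 12.3%, then 14.0%, 14.3% and 14.6%. In each of these the group means lay within the range of the control arrays, and the main strands lay between 99.2% and 109% for miR-382, 46.4% and 60.8% for miR-154 and 178% and 214% for miR-300. NMDA against control gave log2 fold changes of -0.01, 0.03 and -0.04 for miR-382*, miR-154* and miR-300*, and bicuculline against control gave -0.01, 0.06 and -0.02.

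miR-299* had 11.3%, 14.6% and 11.5% in control, 11.2%, 11.8% and 13.2% in NMDA and 12.1%, 12.6% and 12.6% in bicuculline. The groups overlapped, with log2 fold changes of -0.04 for NMDA and 0.00441 for bicuculline against control. Its probe for the plain name miR-299, the 3p arm, was detected on no array and lay between -1.52% and 0.658% of the scale. On these arrays the hairpin was seen through the arm that bears the asterisk.

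Of the 2 star strands detected throughout that lie elsewhere, miR-30e* had 19.1%, 15.5% and 16.3% in control, 16.4%, 14.95% and 16.04% in NMDA and 15.2%, 16.1% and 16.6% in bicuculline. miR-140*, from a hairpin best known from cartilage, had 15.98%, 17.3% and 17.2%, then 16.2%, 17.3% and 18.9%, then 16.6%, 17.8% and 17.2%. Neither moved between groups beyond its spread. The log2 fold change of miR-30e* was -0.10 ± 0.10 (SE) for NMDA and -0.08 ± 0.10 for bicuculline, and that of miR-140* was 0.06 ± 0.09 and 0.03 ± 0.08, all against control (limma adjusted p = 0.991 for NMDA and 0.999 for bicuculline). Beside them miR-30e lay between 23.0% and 37.4% and miR-140 between 18.9% and 23.0%.

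The other 3 tested star strands lay near the limit of detection. miR-674* had 9.22%, 11.3% and 11.3% in control, 7.34%, 9.54% and 10.7% in NMDA and 8.87%, 11.7% and 11.1% in bicuculline, and was not marked on NMDA 1. Its log2 fold change of -0.18 ± 0.14 (SE) for NMDA against control was the lowest of the 14, and values under 7.94% were set to that floor before the fit, which touched 1 of its arrays. The NMDA array was the lower in each of the 3 pairs of the same replicate number. With that number as a block the unadjusted p fell under 0.05 and the limma adjusted p was 0.179, against 0.991 without it. However, miR-674* entered this comparison only through control, where all 3 arrays were marked, so these values are no support for a fall in NMDA. Its main strand miR-674 was detected on no array, between 0.426% and 2.69%.

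The passenger of miR-29c, a family known from maturing neurons, had 8.37%, 11.5% and 10.4% in control, 8.85%, 10.2% and 8.63% in NMDA and 8.26%, 10.8% and 9.47% in bicuculline. miR-181a-1* had 8.37%, 9.01% and 8.08%, then 9.001%, 7.36% and 7.22%, then 8.16%, 7.16% and 5.55%, with 4 of 9 arrays at the floor. Both overlapped between groups, at -0.12 ± 0.13 (SE) and -0.03 ± 0.09 for NMDA against control on the log2 scale. Beside them miR-29c lay between 52.98% and 76.2% and miR-181a between 71.0% and 99.3%.

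**Figure D4:**
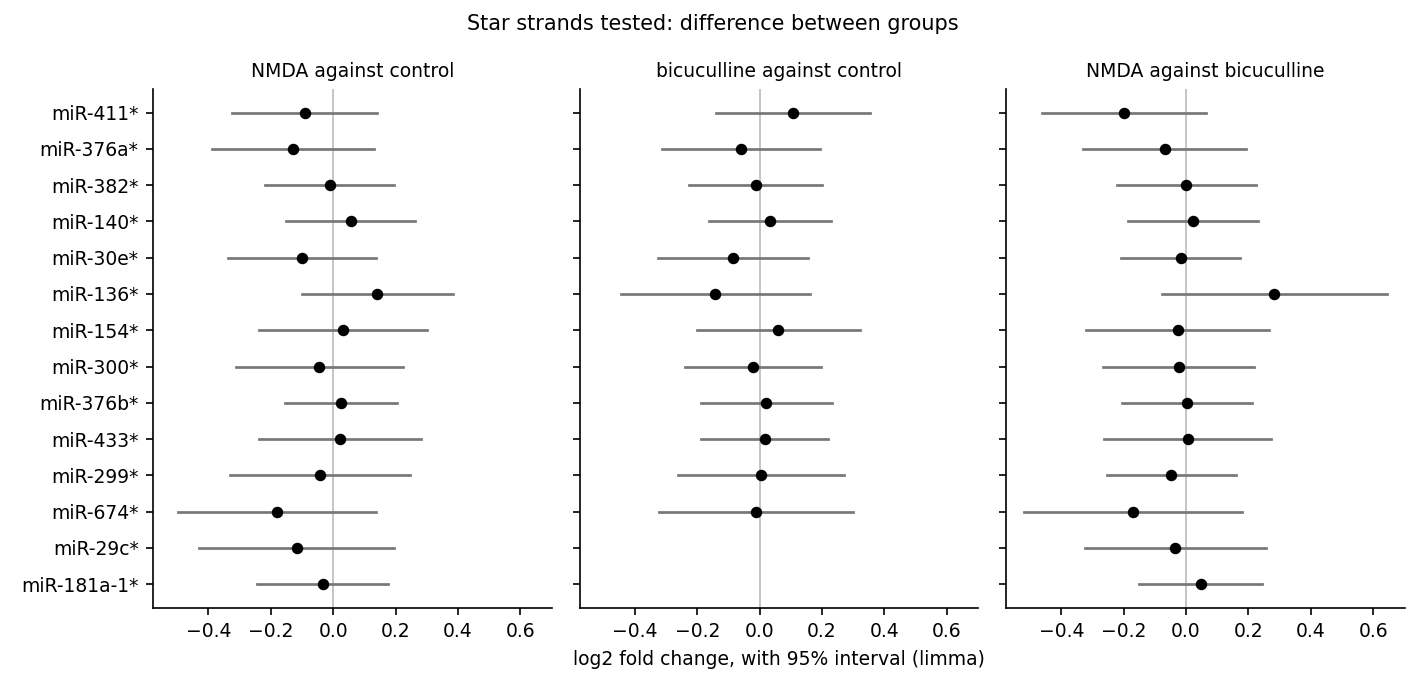
log2 fold changes (points) with 95% intervals (lines) from limma for the star strands tested in each comparison, 14 in the first and the last and 12 in the middle. Every interval crosses 0, and the estimates lie between -0.20 and 0.28.

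The size of change that these arrays leave room for is given by the intervals. Over the 14 star strands the estimates for NMDA against control ran from -0.18 to 0.14 with a median of -0.04, beside -0.01 over all miRNAs tested, and the widest 95% interval reached a change of 1.41-fold. For bicuculline against control they ran from -0.14 to 0.11 with a median of -0.00343, beside -0.02 over the 161, and reached 1.36-fold. For NMDA against bicuculline they ran from -0.20 to 0.28 with a median of -0.02, beside 0.00178, and reached 1.56-fold. In no comparison did the groups of a tested star strand fail to overlap, where 14.9%, 3.11% and 13.3% of all miRNAs tested did. Over the 9 arrays the 11 star strands detected throughout had coefficients of variation of 4.70% to 13.4% with a median of 7.61%, where the median over the 156 miRNAs detected on all 9 arrays was 8.86%.

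Every group lay on both slides, so the changes could also be read within a slide. Control and NMDA had a single array each on slide 2, and bicuculline a single array on slide 1. Values that rest on a single array carry no measure of spread. Over the tested star strands NMDA minus control ran from -0.23 to 0.23 on the log2 scale within slide 1 and from -0.35 to 0.19 within slide 2, and bicuculline minus control from -0.20 to 0.19 and from -0.26 to 0.21.

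The comparison of star with main strand asked whether the arms of 1 hairpin changed unequally. For each array log2 star minus log2 main strand was taken and tested with limma between groups, over the 18 arm pairs of any name with both arms detected on all 6 arrays, of which 10 were star pairs. None of the 10 was called in any comparison, and the background was 0 of 18 (0%) in each. At an unadjusted p under 0.05 there was 1 star pair, miR-433*, for NMDA against control and 0 for the others.

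The pair of miR-433 had the lowest p of the 10. Its star strand had 13.2%, 14.5% and 13.8% of the scale in control, 15.9%, 14.2% and 12.2% in NMDA and 14.9%, 13.6% and 13.5% in bicuculline, while the main strand had 84.1%, 98.6% and 84.6%, then 76.0%, 75.5% and 71.8%, then 87.9%, 80.2% and 91.0%. The star strand overlapped between groups, and the main strand was lower on all 3 NMDA arrays than on any control or bicuculline array. Relative to the control mean, star over main was 0.01, -0.08 and 0.07 on the log2 scale in control, 0.43, 0.27 and 0.13 in NMDA and 0.12, 0.12 and -0.07 in bicuculline.

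Star over main of miR-433 was thus higher on every NMDA array than on any other. The difference from control was 0.28 ± 0.10 (SE, 3 arrays against 3, 95% interval 0.03 to 0.53) with a limma p of 0.035 and an adjusted p of 0.632, so it did not pass. The arms contributed unequally, with a log2 fold change of 0.02 ± 0.11 for the star strand and -0.26 ± 0.09 for the main strand (limma adjusted p = 0.991 and 0.251). Within slide 1 the difference was 0.39 and within slide 2, with a single array of each group, it was 0.06. Against bicuculline it was 0.22 ± 0.11 (limma adjusted p = 0.532), and 0.02 after quantile normalization. Arm pairs without overlap between groups made up 11.1% of the 18 for NMDA against control, 5.56% for bicuculline against control and 22.2% for NMDA against bicuculline, and among star pairs miR-433* was the 1 for each NMDA comparison.

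**Figure D5:**
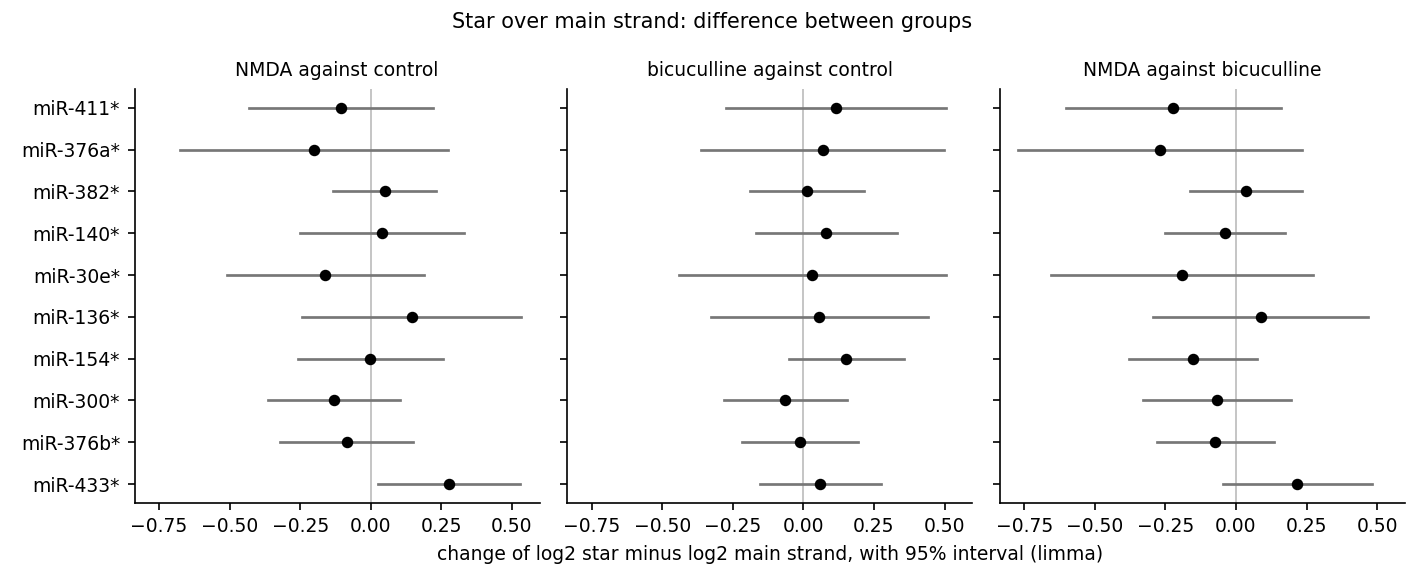
Change of log2 star minus log2 main strand between groups (points) with 95% intervals from limma (lines) for the 10 star pairs with both strands on all arrays. The interval of miR-433* for NMDA against control, 0.03 to 0.53, lies above 0 before adjustment, and the other intervals cross 0.

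In the other 9 pairs every 95% interval held 0. For NMDA against control the lowest value was -0.20 ± 0.20 (SE) for miR-376a*, whose star over main stood at -0.39, -0.39 and 0.17 on the NMDA arrays relative to the control mean. miR-136* had 0.14 ± 0.16, miR-30e* -0.16 ± 0.14 and miR-300* -0.13 ± 0.10, and the other 5 lay between -0.11 and 0.05. For bicuculline against control the 10 pairs ran from -0.06 for miR-300* to 0.15 for miR-154* (limma adjusted p from 0.851 to 0.888). The widest intervals reached 1.60-fold for NMDA against control, 1.42-fold for bicuculline against control and 1.71-fold for NMDA against bicuculline.

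The other 6 star strands were detected on 1 to 5 arrays and were not tested. miR-30a* (5 arrays), whose sequence is above, lay between 7.62% and 8.87% of the scale. miR-22* (4 arrays) lay between 5.54% and 8.26% and miR-330* (4 arrays) between 5.85% and 7.65%, the latter beside a main strand detected on no array. miR-7a* was detected on 3 arrays, all of slide 2 and 1 from each group. Its level was 8.57%, 8.57% and 8.44% in control, 7.17%, 6.98% and 8.06% in NMDA and 7.51%, 8.29% and 8.31% in bicuculline, so that the control arrays lay above the rest, though only 1 of them was marked. The gap to bicuculline, 8.44% against 8.31%, was narrow and near the limit of detection. Without overlap were 14.9% of all miRNAs tested for NMDA against control and 3.11% for bicuculline against control. The order of miR-7a* is thus not read as a fall.

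miR-30c-2* and miR-135a* were detected on a single array, NMDA 3. For miR-30c-2* the levels were 4.72%, 4.83% and 5.70% in NMDA against 1.70%, 2.67% and 2.39% in control and 1.94%, 2.43% and 2.63% in bicuculline. All 3 NMDA arrays lay above the other 6, but 2 of the 3 were not well above background and neither were the other 6. It is among the 20 only through NMDA 3, so this separation is no support for a rise. Of all miRNAs tested, 14.9% had no overlap between NMDA and control and 13.3% between NMDA and bicuculline. With a limit of detection of 4.80% to 8.37% on the control arrays, no fold change of miR-30c-2* is given. miR-135a* had 3.78%, 5.75% and 5.14% in NMDA, 2.56%, 5.196% and 3.79% in control and 1.29%, 2.37% and 4.05% in bicuculline, and overlapped throughout. The sequences of these last members, with the seed in capitals, are printed because they mark the edge of what was detected.
miR-30c-2* (chr1:23291754-23291775, + strand): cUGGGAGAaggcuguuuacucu
miR-135a* (chr9:106154179-106154200, + strand): uAUAGGGAuuggagccguggcg
miR-7a* (chr13:58392800-58392821, - strand): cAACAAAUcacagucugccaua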

How the data were processed

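Small RNA from 9 cultures was hybridised to one-colour arrays, with 3 per group. For each array the scanner file was deposited by the authors, made with Agilent Feature Extraction 10.7.1.1 on 5 arrays and 10.7.3.1 on 4, whose spot intensity values were background-subtracted by that software and not normalized between arrays. The authors also deposited a table of processed log2 values, 1 per miRNA and array.

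Control spots and 3278 flagged spots were left out, no spot was saturated, and the spots of each of 1857 probes were averaged. Each array's scale was the 75th percentile of the 265 probes detected on every array. Scaled signals under a floor of 7.94% were raised to it (the median over arrays of the lowest probe signal well above background), and log2 was taken. Levels in the text are before the floor. A miRNA was read from its brightest probe over all arrays. Each comparison used its 6 arrays alone in limma 3.58.1 (R 4.3.3), with no covariate and two-sided p-values adjusted by Benjamini-Hochberg. Counts per array were compared by exact permutation.

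The limma step was tested on simulated levels, drawn around the measured means with the median SD within groups, in which a log2 change of 1 was given to 20 miRNAs. Of these 100% were recovered, with 3.43% of its calls false for NMDA against control, 4.03% for bicuculline against control and 4.31% for NMDA against bicuculline. With 4 of 18 arm pairs changed it recovered 100%, with 6.10%, 7.41% and 5.44% false. The planted change was larger than any estimate for a star strand or star pair, and smaller changes were not simulated. Arrays were drawn independently, without the correlations given below. This recovery therefore does not show how well changes of the size estimated here would be found.

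The members, their groups and the markers were chosen with earlier results of these data known. Every star strand detected on an array is named, those detected on all 3 arrays of a group with all values, and up to 12 undetected ones with the brightest main strands as examples. Arms were matched to RefSeq names by hand. The main strand miR-140-5p was not printed. To see whether replicate numbers pair arrays, deviations from the group mean were correlated over 156 miRNAs. For NMDA and control the correlation between arrays of the same number was 0.364, 0.763 and 0.633, and these arrays also share a slide. For bicuculline and control it was 0.587, 0.0847 and 0.719, so those numbers were not taken as pairs.

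Alternatives were other scalings (75th percentile of all probes, median, quantile, none), total gene signal or the mean of all probes, the authors' log2 table, normexp with an offset of 50 on the median spot signal followed by quantile normalization, a floor at 0.5 of the main one, other filters and detection calls, a joint fit of the 3 groups, a block for the replicate number or for the slide, the methods' t-test, and every array left out in turn.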

Additional observations from a re-analysis of the deposited data

How the results depend on the processing

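No star strand was called in any comparison under any alternative but 1. When the 75th percentile was taken over all probes, dim ones included, the median of all miRNAs tested stood at -0.47 on the log2 scale for NMDA against bicuculline and -0.43 for NMDA against control, and 12 of 14 star strands were called lower in NMDA than in bicuculline. Among these miR-140* (-0.46), miR-376b* (-0.48), miR-382* (-0.48) and miR-433* (-0.47) had turned sign beside that median. The median over the star strands was -0.49 for NMDA against bicuculline at this scaling, beside the -0.47 over all miRNAs. The share of all miRNAs called is not given, so the 12 are not read as particular to star strands. The cause of the shift was not tested. For NMDA against control this scaling left 0 called, with 7 star strands at an unadjusted p under 0.05 (smallest limma adjusted p = 0.065). After quantile normalization the median over the star strands was -0.25 for NMDA against control and -0.27 for NMDA against bicuculline, beside -0.14 and -0.13 over all miRNAs tested, with 5 and 9 star strands at an unadjusted p under 0.05 and 0 called (smallest limma adjusted p = 0.060 and 0.063). For these unadjusted counts, too, the share over all miRNAs is not given. Without scaling the median of all miRNAs stood at 0.20 for NMDA against bicuculline and -0.17 for bicuculline against control. With the total gene signal the star strands and all miRNAs ran opposite ways, at medians of -0.43 and 0.13 for bicuculline against control and 0.28 and -0.10 for NMDA against bicuculline, and miR-29c* went from -0.12 to 0.97 for NMDA against control, with 0 called. That signal correlated with the authors' values at 0.811 to 0.852 on slide 1 arrays and at 0.970 to 0.975 on slide 2 arrays. The part of the slide in the values from the total gene signal was not tested.

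No star pair was called under any alternative run for pairs, and detection on all arrays of both groups, which is already the filter for pairs, was not run again. For NMDA against control star over main of miR-433* was 0.14 with quantile normalization, 0.15 with the total gene signal, 0.15 in the authors' table and 0.34 with the mean of all probes, and leaving out single arrays gave 0.20 to 0.35. With the total gene signal it stood at -1.62 for bicuculline against control and 1.76 for NMDA against bicuculline (limma adjusted p = 0.609 and 0.573).

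With the replicate number as a block, which pairs NMDA with control arrays, 0 star strands and 0 star pairs were called in every comparison. For NMDA against control the smallest limma adjusted p was 0.179 over star strands and 0.217 over star pairs. For NMDA against bicuculline it was 0.077 over star strands, with 1 at an unadjusted p under 0.05. The block changed no other call. Without a detection filter the smallest limma adjusted p over the 108 star strands was 0.061 for NMDA against control, with 1 at an unadjusted p under 0.05. Leaving out any 1 array also left 0 called. Counts of star strands on all 3 arrays ranged from 10 to 18 in control, 11 to 18 in NMDA and 10 to 16 in bicuculline over the other detection calls. The difference in the number per array had no stable sign. NMDA minus control was 0 when all spots of a probe had to be above background and -0.333 with the scanner software's flag, and bicuculline minus control was -0.333 when 1 spot sufficed and -0.667 with that flag. For star strands below background these arrays give only a limit.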

Other observations

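In the authors' log2 table, which holds a value for every miRNA on every array, the 108 star strands differed between NMDA and control by -0.13 (let-7c-1*) to 0.07 (miR-30c-2* and miR-28*, at the same value) with a median of -0.02, and between bicuculline and control by -0.08 (let-7c-1*) to 0.08 (miR-93*) with a median of 0. The column medians of that table were 7.06 to 7.08. Over the 156 miRNAs detected on all arrays its values correlated with the log2 total gene signal of the same array (a correlation across miRNAs, which are not independent). The correlation was 0.811 to 0.852 on the 5 arrays of slide 1 and 0.970 to 0.975 on the 4 of slide 2, with slopes of 0.555 to 0.606 over all arrays. How its values were transformed and centred is not known here.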
